A study of Mus musculus with 32 samples.

Results

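The comparison set out here is that of Mettl3 knockout (KO) with wild-type (WT) organoids at day 4 of differentiation, over all genes. It rests on 4 of the 32 libraries of the series, 2 of each line, which their labels place at day 4. The study followed mouse embryonic stem cells as they were grown into retinal organoids, small aggregates that form optic tissue in culture, at days 0, 2, 4 and 6, and measured polyadenylated RNA. WT is the Rx:GFP line, whose name points to a fluorescent reporter driven from Rx, the gene now called Rax, and KO is the line labelled Mettl3 KO. The other cultures of the series, not part of this comparison, were KO cells that overexpress WTMTL3-GRBD, kept without or with 10 µM dexamethasone (Dex). Both day 4 groups were grown as organoids in serum-replacement medium with 0.1 µM of a compound called AGN, and neither received Dex or WTMTL3-GRBD. The labels do not say how the KO was made, whether it is a single clone, or whether the duplicates are separate cultures. Each duplicate has its own library name in the labels. The p-values measure the spread between duplicate libraries, pooled over all 16 groups of the series, and this spread may be technical.

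METTL3 is the catalytic subunit of the complex that writes N6-methyladenosine (m6A) on messenger RNA, a mark that is read by YTH-domain proteins and that can shorten the life of a transcript. The eye field is the patch of the anterior neural plate from which both retinas arise. It is set up by a group of transcription factors that includes Rax, Six3, Six6, Lhx2 and Pax6, in a region where Wnt signalling is kept low, while higher Wnt signalling favours diencephalon, midbrain and more posterior neural fates.

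Values are the authors' FPKM, a fragment count scaled to the length of the transcript and to the depth of its library. Differences are KO minus WT of log2(FPKM + 1), which shrinks the difference of genes with low values. Folds are ratios of mean FPKM with nothing added, so at low values they are larger than these log2 differences imply. A gene was called at a limma adjusted p under 0.05 (Benjamini-Hochberg, two-sided). Of 16276 genes tested, 9855 were called (60.5%), 5946 higher in KO (36.5%) and 3909 lower (24.0%). Counts of called genes in the lists below are to be read beside these shares of 36.5% and 24.0%. A second rule, a call with a log2 change of at least 1, was met by 902 genes (5.54%), 577 higher (3.55%) and 325 lower (2.00%). The median gene differed by 0.06. The split depends on scaling: 60.3% of calls and 64% of those of at least 1 were higher as deposited, and 49.7% and 52.6% after median-of-ratios rescaling, which moved the median gene by -0.06. Depth estimated from the steps of low values was 36.2 to 44.1 M fragments (M, mega) in the 4 libraries, at which 3 fragments on a 2 kb transcript give 0.04 to 0.048 FPKM. Duplicates correlated across genes at Pearson r = 0.9946 in WT and 0.9942 in KO. The 858 tested genes of chromosome 8 had a median difference of 0.34, against 0.05 for the rest and between -0.02 and 0.12 for each other chromosome, so genes on chromosome 8 are named as such below. At days 0, 2 and 6 the chromosome 8 median stood at 0.01, 0.24 and 0.35, against -0.04, 0.08 and -0.05 for the rest. Whether the lines differ in copies of chromosome 8 was not tested. This bears on the values of Irx3, Irx5, Sox1 and Nkd1, and on gene lists below with members on chromosome 8. Without those members, the Iroquois median went from 3.55 to 2.72, and sterol genes higher by at least 1 from 3 to 1. The extraembryonic endoderm median stayed at -1.30.

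The targeted gene gave no check of the labels. Mettl3 (ENSMUSG00000022160, GRCm38 chromosome 14, 52294841 to 52305128) was at 32.5 and 34.5 FPKM in WT and at 34.9 and 38.4 FPKM in KO. The difference of 0.12 ± 0.06 (SE) was not called (limma adjusted p = 0.0904), and without KO replicate 1 it was 0.19 and called (limma adjusted p = 0.0331). A gene-level FPKM does not show whether part of the transcript was deleted or the reading frame broken.

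Eye-field genes did not move as a block at day 4. The reporter, Rax, Six3 and Hesx1 were far lower in KO. Lhx2 and Tbx3 were lower by less on the log2(FPKM + 1) scale, by -1.39 and -1.23. Pax6 and Mab21l2 were higher, and Otx2 was not called. The eGFP row of the table, the reporter for which the line is named, stood at 31.4 and 32.3 FPKM in WT and 0.44 and 0.33 FPKM in KO, 82.7-fold lower. Rax (ENSMUSG00000024518, chromosome 18, 65928277 to 65939787), the homeobox gene required for the eye to form, was at 30.7 and 31.5 FPKM in WT and 1.2 and 1.21 FPKM in KO. Its mean was 25.8-fold lower in KO (log2 difference -3.86, SE 0.06, limma adjusted p = 3.43e-19). The libraries of the 2 lines did not overlap for either, as held for 79.1% of all genes tested.

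Six3 (ENSMUSG00000038805, chromosome 17, 85613608 to 85629302), a homeobox gene known to hold Wnt genes off in the anterior neural plate, was at 73.8 and 74.3 FPKM in WT and 7.08 and 7.18 FPKM in KO. Its mean was 10.4-fold lower (log2 change -3.21 ± 0.07 SE, limma adjusted p = 1.24e-17). Hesx1, an early homeobox repressor of the anterior neural plate and pituitary, was at 153 and 158 FPKM in WT against 35.1 and 35.6 FPKM in KO, 4.4-fold lower. Six3 and Hesx1 kept a clear level in KO, and the duplicates of each line lay close together. Lhx2, a LIM homeobox gene needed for the optic vesicle to grow out, was at 14.4 and 13 FPKM in WT and 4.52 and 4.67 FPKM in KO, 2.98-fold lower. Tbx3, a T-box repressor found in the early eye field, was at 1.96 and 3.14 FPKM in WT and 0.47 and 0.52 FPKM in KO. The WT duplicates of Tbx3 lay far apart, yet both were above both KO libraries.

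Pax6, the paired-box gene shared by eye field, forebrain and hindbrain progenitors, ran the other way, with 5.96 and 4.19 FPKM in WT and 8.99 and 8.84 FPKM in KO (log2 change 0.72 ± 0.15 SE, limma adjusted p = 3.24e-04). Mab21l2, needed for lens and optic cup growth and also expressed in midbrain, was at 2.87 and 2.59 FPKM in WT and 37.1 and 37.9 FPKM in KO, 13.7-fold higher (log2 change 3.37 ± 0.05 SE, limma adjusted p = 1.05e-19). Otx2, which marks forebrain and midbrain as a whole, was high in all 4 libraries, at 193 and 199 FPKM in WT and 200 and 203 FPKM in KO, a difference of 0.04 ± 0.03 (SE, limma adjusted p = 0.277). After rescaling it was -0.07 and called (limma adjusted p = 0.0476). Six6 was at most 0.33 FPKM and Nr2e1 at most 0.05 FPKM in any day 4 library of either line, so these genes were low in both lines. Over the 11 eye-field genes tested, 6 were lower and 3 higher, 5 and 1 of them by at least 1, with a median of -0.31. Of all genes, 24.0% were lower and 36.5% higher, 2.00% and 3.55% by at least 1.

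**Figure D1:**
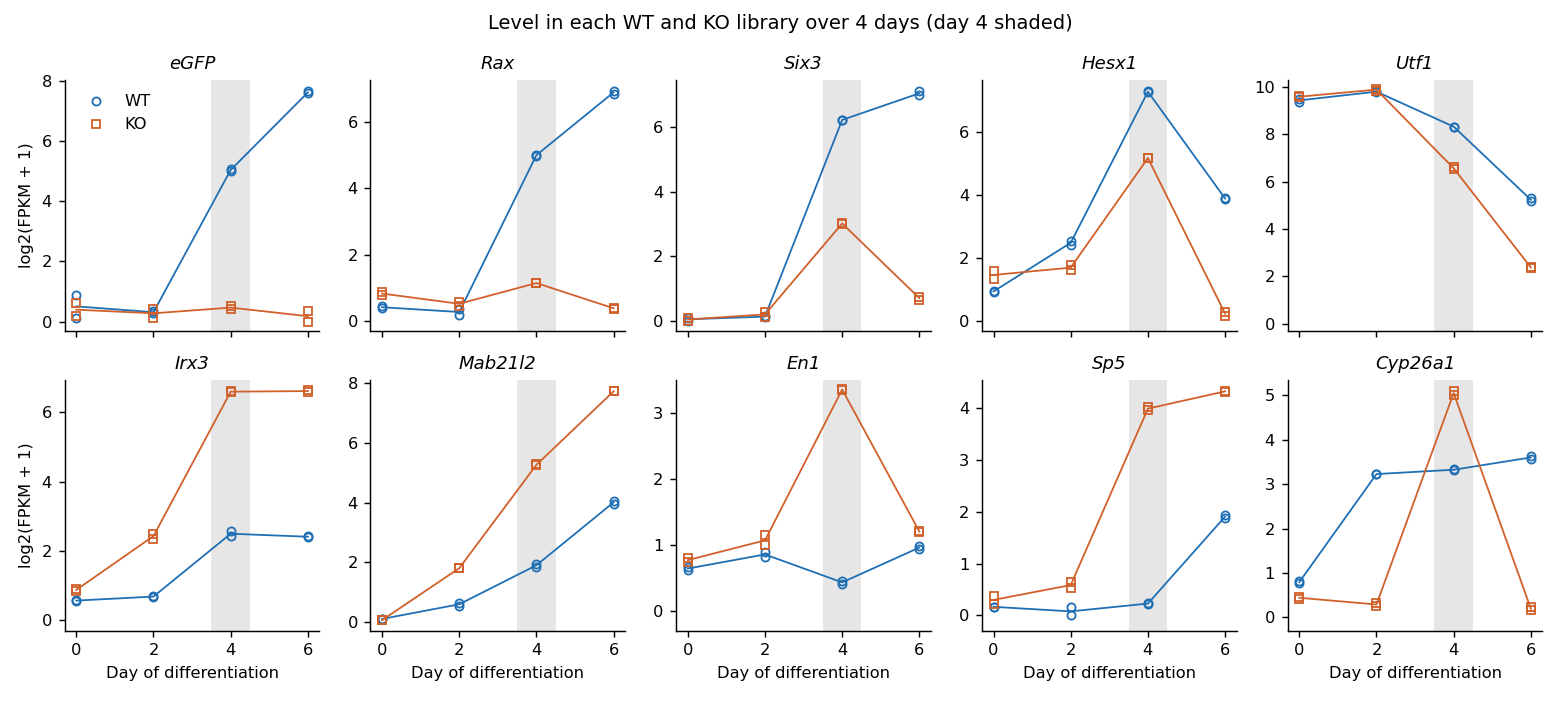
Level of 10 genes as log2(FPKM + 1) against day of differentiation, with each WT library as a blue circle, each KO library as an orange square and lines through the group means; day 4 is shaded. eGFP, Rax and Six3 rise in WT between days 2 and 4, Irx3, Mab21l2, En1 and Sp5 rise in KO, and Cyp26a1 is higher in KO at day 4 alone of the 4 days.

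For Rax and Six3, a gap between the lines opened from day 2 to day 4. The median difference of the 11 eye-field genes was 0.07, -0.31 and -3.14 at days 2, 4 and 6. In WT, Rax rose from 0.13 and 0.28 FPKM at day 2, and in KO it rose from 0.37 and 0.49 FPKM, a rise of 4.74 ± 0.06 against 0.63 ± 0.06 on the log2 scale (SE). The difference between these 2 rises, tested as an interaction, was -4.11 (limma adjusted p = 1.22e-16). Six3 rose in both lines too, from at most 0.21 FPKM in any day 2 library, by 6.09 in WT and 2.82 in KO, a difference of -3.28 (limma adjusted p = 8.44e-15). Six3 and Rax thus rose in KO too, by less, and at day 6 they were lower in KO than at day 4: Six3 was at 0.69 and 0.58 FPKM and Rax at 0.28 and 0.32 FPKM. Hesx1 peaked at day 4 in both lines among the 4 days sampled. Over all genes, 9750 (59.9%) changed from day 2 to day 4 within WT and 10455 (64.2%) within KO. The KO against WT difference changed from day 2 to day 4 in 6893 genes (42.4%), and in 8 of the 11 eye-field genes, negatively in 6 (22.0% of all genes) and positively in 2 (20.4%).

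Genes of the anterior forebrain, the tissue next to the eye field, split, with a median of -0.01. Of 14 tested, 6 were lower in KO, 5 of them by at least 1, and 3 were higher, 1 of them by at least 1. Of all genes, 24.0% were lower and 36.5% higher. Fezf1, a zinc-finger repressor of posterior fates in the forebrain, was at 13.2 and 12.6 FPKM in WT and 1.92 and 2 FPKM in KO, 6.6-fold lower. Its relative Fezf2 was at 12.4 and 12.2 FPKM in WT and 1.93 and 2.02 FPKM in KO, 6.23-fold lower. Both pairs of libraries were almost identical within a line and far apart between lines (limma adjusted p = 1.13e-17 for Fezf1 and 8.73e-18 for Fezf2). Lhx5, a LIM homeobox gene of the rostral neural plate, fell from 40.5 and 41.5 to 11.4 and 11.7 FPKM, and Lmo1, a LIM-only cofactor, from 41.2 and 43.6 to 20.8 and 20.3 FPKM. Sp8, a zinc-finger gene of the anterior neural ridge and of the midbrain-hindbrain border, rose from 0.67 and 0.76 to 6.73 and 6.54 FPKM.

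Of 5 Iroquois genes tested, 4 were higher in KO, all by at least 1. These are homeobox genes that mark diencephalon, midbrain and hindbrain and are held out of the eye field. Irx5 (ENSMUSG00000031737, chromosome 8, 92357625 to 92376286) was at 1.33 and 1.57 FPKM in WT and 53.8 and 53.5 FPKM in KO, 37-fold higher (log2 change 4.48 ± 0.09 SE, limma adjusted p = 5.28e-18). Irx3, its neighbour on chromosome 8 (91798525 to 91802067), was at 4.4 and 4.91 FPKM in WT and 95.1 and 96 FPKM in KO, 20.5-fold higher. The other Iroquois cluster lies on chromosome 13, where Irx1 was at 1.74 and 1.58 FPKM in WT and 31.1 and 29.2 FPKM in KO, and Irx2 at 1.38 and 2.31 FPKM in WT and 17.8 and 17.3 FPKM in KO. All 4 were far apart between the lines, and the WT duplicates of Irx2 also differed. Irx4 was at most 0.26 FPKM in all 4 libraries and was not called, except with a smaller pseudocount, without a filter or without WT replicate 2 (limma adjusted p = 0.0258, 0.034 and 0.0329). The rise had started by day 2 for Irx3, at 0.59 and 0.63 FPKM in WT and 4.67 and 4.13 FPKM in KO, and from then to day 4 KO rose by 4.16 ± 0.06 and WT by 1.81 ± 0.06 (SE).

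Several other genes of diencephalon, midbrain and hindbrain rose in KO from levels close to 0. Dmbx1, a homeobox gene of diencephalon and midbrain, was at 0.09 and 0.07 FPKM in WT and 8.4 and 8.55 FPKM in KO. En1, which patterns the midbrain and anterior hindbrain, was at 0.33 and 0.37 FPKM in WT and 9.2 and 9.21 FPKM in KO, 26.3-fold higher (log2 change 2.92 ± 0.10 SE, limma adjusted p = 5.11e-15). Wnt1, the signal of the midbrain-hindbrain border, was at 0.44 and 0.51 FPKM in WT and 7.14 FPKM in both KO libraries, 15-fold higher. The duplicates of these 3 genes lay close together in KO. Foxb1, a forkhead gene of hypothalamus and midbrain, rose from 0.15 and 0.21 to 7.85 and 8.01 FPKM. Barhl1, Pax3 and Tal2 rose by 1.50, 1.34 and 1.29 on the log2 scale. The list of genes of these regions does not hold every gene named above. Of its 23 genes tested, 16 were higher, 6 by at least 1, and 5 lower, 1 by at least 1, with a median of 0.45. The lower ones included Fgf8, the ligand of the midbrain-hindbrain border, at 2.72 and 2.95 FPKM in WT and 1.49 and 1.46 FPKM in KO. En1 did not stay high: at day 6 it was at 1.29 and 1.31 FPKM in KO, and its difference fell by 2.68 from day 4 to day 6 (limma adjusted p = 6.58e-12), while that of Dmbx1 grew by 2.20 (limma adjusted p = 2.01e-14). Hox genes, which mark hindbrain and trunk, stayed low, with a summed level of 0.58 and 0.79 FPKM over 26 genes in WT and 1.25 and 1.1 FPKM in KO.

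**Figure D2:**
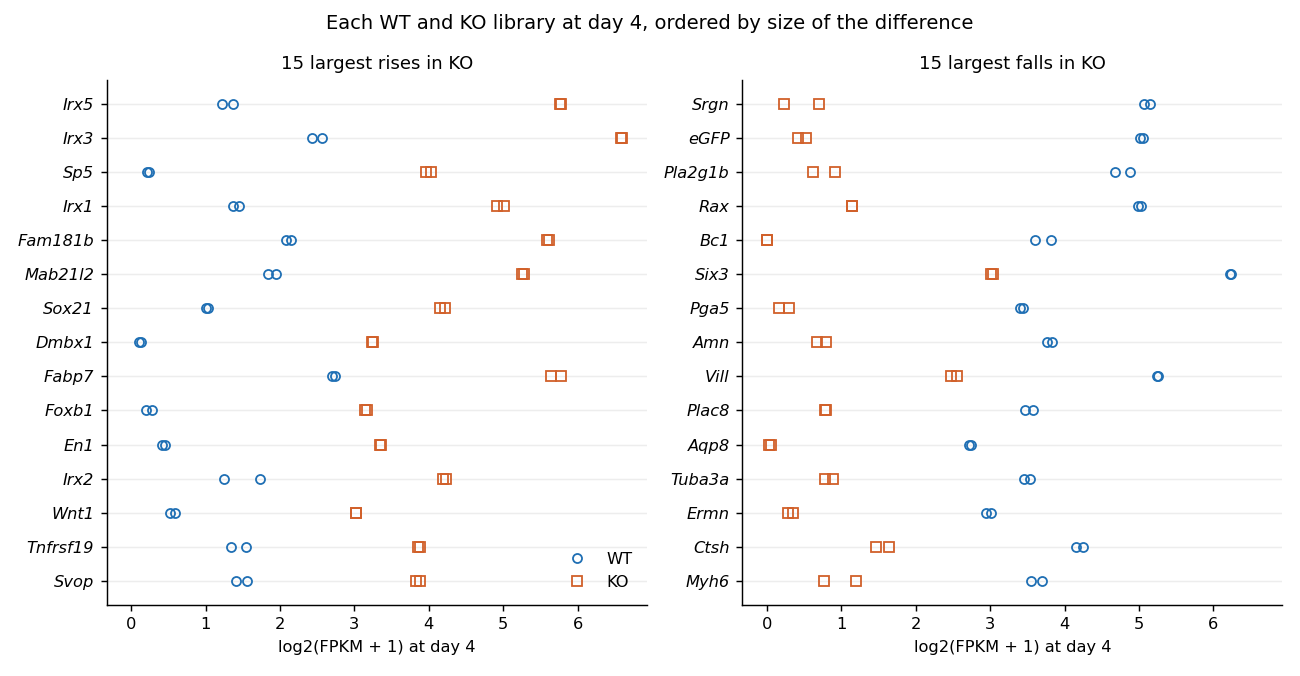
Level of the 15 genes with the largest rise (left) and the 15 with the largest fall (right) in KO at day 4 as log2(FPKM + 1), each WT library as a blue circle and each KO library as an orange square. Irx5, Irx3 and Sp5 lead the rises and Srgn, eGFP and Pla2g1b the falls among genes of at least 5 FPKM in the higher line; genes with overlapping libraries were left out by the choice of genes.

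Markers of neural progenitors as a class were higher in KO, led by Sox21, Fabp7, Sp8 and Sox1. Sox21 was at 1.05 and 1.01 FPKM in WT and 16.8 and 17.6 FPKM in KO, 16.7-fold higher, and Fabp7, a fatty-acid-binding protein of radial glia, at 5.5 and 5.68 FPKM in WT and 53.6 and 48.8 FPKM in KO, 9.16-fold higher. Sox1, the earliest gene specific to neural plate, was at 5.56 and 5.73 FPKM in WT and 26.5 and 26.6 FPKM in KO, and lies on chromosome 8. Sox2, shared with stem cells, was high in all 4 libraries, at 180 and 183 FPKM in WT and 210 and 206 FPKM in KO, a difference that was not called after rescaling, and Sox3 rose from 36.4 and 38.1 to 60.6 and 63.6 FPKM. Of 17 progenitor genes tested, 14 were higher and 1, Lhx2, lower. After rescaling the counts were 10 and 2. Neuronal genes did not follow, with 3 of 17 higher and 4 lower and a median of 0.01. Neurog2, a proneural factor, was lower in KO, at 1.07 and 0.91 FPKM against 6.72 and 6.6 FPKM in WT, 6.73-fold. It was the only 1 of 9 proneural genes tested that was lower, while 4 were higher, with a median of 0.17.

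Wnt ligands, receptors, antagonists and target genes were examined as 4 lists. Wnt1, Wnt10b and Wnt7b led the ligands: Wnt10b was at 0.23 and 0.03 FPKM in WT and 2.75 and 2.96 FPKM in KO, and Wnt7b at 0.63 and 0.69 FPKM in WT and 4.25 and 4.07 FPKM in KO. Of 13 ligand genes tested, 8 were higher and 1 lower. Among receptors, Ror2 rose from 2.79 and 2.99 to 16.1 FPKM in both KO libraries, and Fzd10 from 0.38 and 0.39 to 4.02 and 4.33 FPKM. Fzd5, the Frizzled receptor of the eye field, fell from 35.2 and 36.2 to 20.2 and 21.4 FPKM. Of 16 receptor genes, 11 were higher and 2 lower, and 8 and 2 after rescaling. Of 13 secreted or membrane-bound antagonists tested, 6 were higher and 3 lower with a median of 0.01, beside 36.5% and 24.0% of all genes, and 4 and 4 after rescaling. Among those higher, Apcdd1 rose from 1.15 and 1.37 to 6.58 and 7.47 FPKM, Dkk1 from 0.92 and 1.05 to 4.47 and 4.52 FPKM, and Frzb from 6.81 and 6.15 to 18.7 and 16.9 FPKM.

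Target genes of the pathway split into a few that rose steeply and many that did not. Sp5 (ENSMUSG00000075304, chromosome 2, 70474923 to 70477729), a zinc-finger gene directly induced by Wnt, was at 0.16 and 0.18 FPKM in WT and 14.6 and 15.3 FPKM in KO, 87.9-fold higher (log2 change 3.77 ± 0.09 SE, limma adjusted p = 6.02e-17). Axin2, the feedback inhibitor most often used as a readout of the pathway, was at 2.25 and 2.46 FPKM in WT and 15.2 and 15.8 FPKM in KO, 6.57-fold higher (log2 change 2.30 ± 0.08 SE, limma adjusted p = 1.61e-14). Tnfrsf19, a receptor of the tumour necrosis factor family, was at 1.92 and 1.54 FPKM in WT and 13.8 and 13.5 FPKM in KO, 7.91-fold higher. The libraries of these 3 genes lay far apart between the lines. Nkd1, a further feedback inhibitor on chromosome 8, rose from 4.66 and 4.91 to 16.9 and 16.1 FPKM. Lef1, both a mediator and a target of the pathway, was lower in KO, at 7.43 and 8.31 FPKM against 17.1 and 15.6 FPKM. Tcf7 rose by 0.36, and Ccnd1 differed by 0.15, which was not called after rescaling (limma adjusted p = 0.2). Of 15 target genes tested, 8 were higher, 4 of them by at least 1, and 2 lower, with a median of 0.29.

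The promoter windows of the 3 steepest targets are shown because these genes moved together. Each runs from 250 bases before to 50 bases after a transcription start in RefSeq (GRCm38.p6), on the strand of the gene. The motif searched was CTTTGAT, the core to which TCF and LEF factors bind, with its reverse complement ATCAAAG, and matches are in capitals. Sp5 (chr2:70474673-70474972, plus strand) held 1 match, Tnfrsf19 (chr14:61037938-61038237, minus strand, the more downstream of its 2 windows) held 1, and Axin2 (chr11:108920099-108920398, plus strand) held 0. The more upstream window of Tnfrsf19, not printed here, held 0.
Sp5: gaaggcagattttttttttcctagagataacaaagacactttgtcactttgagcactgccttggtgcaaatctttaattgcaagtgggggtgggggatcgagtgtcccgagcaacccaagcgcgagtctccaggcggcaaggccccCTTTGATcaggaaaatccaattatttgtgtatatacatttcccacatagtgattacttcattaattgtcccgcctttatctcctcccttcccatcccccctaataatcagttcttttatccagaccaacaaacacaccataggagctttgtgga
Tnfrsf19: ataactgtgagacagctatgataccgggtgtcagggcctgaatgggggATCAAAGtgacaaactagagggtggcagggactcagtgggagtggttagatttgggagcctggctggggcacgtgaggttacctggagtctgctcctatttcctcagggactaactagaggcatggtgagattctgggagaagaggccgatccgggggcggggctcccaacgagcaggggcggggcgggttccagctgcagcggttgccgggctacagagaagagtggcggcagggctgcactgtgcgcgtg
Axin2: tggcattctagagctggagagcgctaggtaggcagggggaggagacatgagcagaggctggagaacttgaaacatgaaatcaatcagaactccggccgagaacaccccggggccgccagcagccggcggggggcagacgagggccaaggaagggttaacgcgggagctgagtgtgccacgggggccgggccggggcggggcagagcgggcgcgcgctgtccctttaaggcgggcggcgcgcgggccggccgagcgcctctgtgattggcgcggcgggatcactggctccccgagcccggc
Of all 32851 windows, 3.73% held the motif. Among the tested Wnt targets, 9 had a window, 15 windows in all, and 2 of these windows held it (13.3%). A match describes the letters and is no evidence of binding.

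Notch pathway genes, which keep neural progenitors from differentiating, were higher in KO almost throughout, with 16 of 18 tested higher, 1 lower and a median of 0.67. After rescaling 14 were higher and 1 lower. Nrarp, a feedback gene of the pathway, was at 3.67 and 3.45 FPKM in WT and 15.7 and 16 FPKM in KO, 4.44-fold higher. The receptor Notch3 rose from 9.96 and 10.2 to 29.4 and 28.4 FPKM and the ligand Jag1 from 1.53 and 2 to 6.2 and 6.02 FPKM. Hes1, a transcriptional effector, was at 25.3 and 28.7 FPKM in WT and 50.8 and 51.6 FPKM in KO. At day 2, 12 of the 18 were higher, against 37.5% of all genes.

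**Figure D3:**
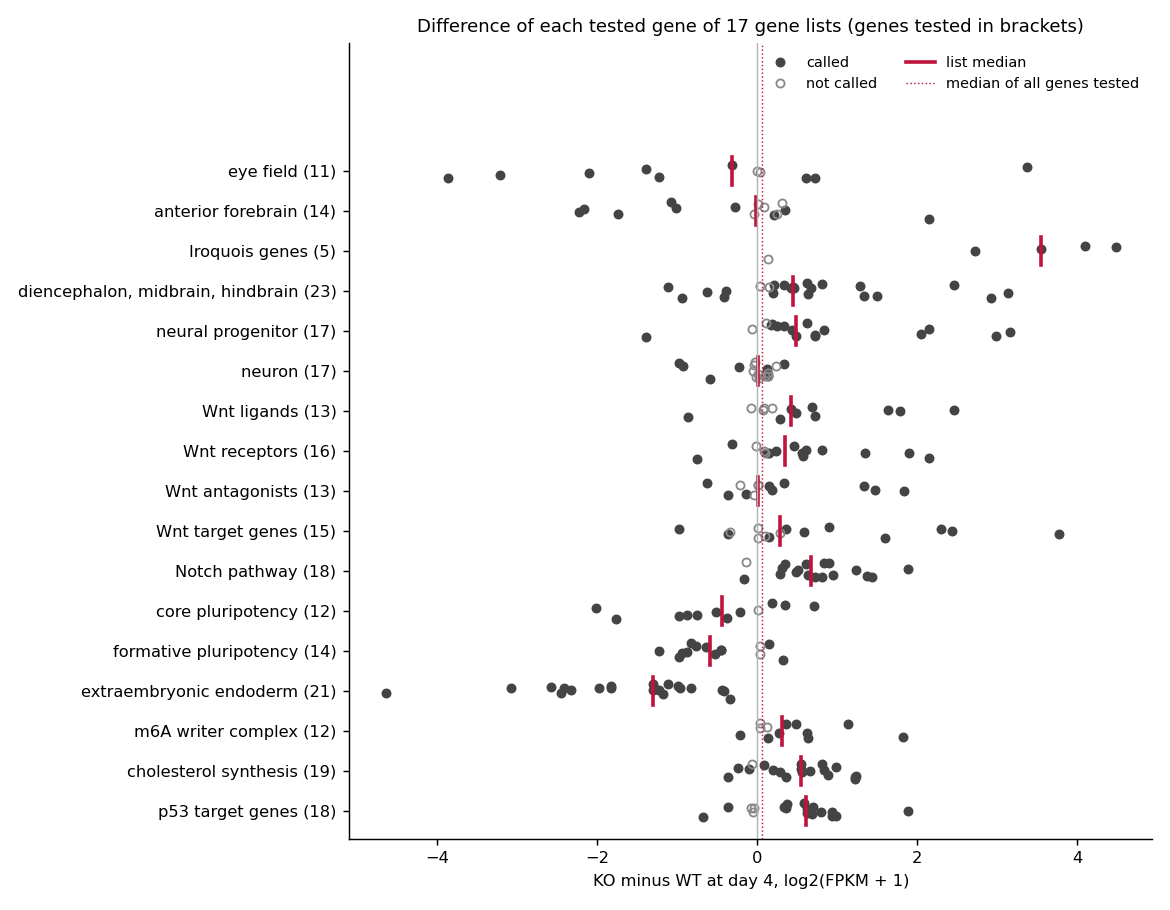
KO minus WT difference at day 4 on the log2(FPKM + 1) scale for each tested gene of 17 lists, filled where called and open where not, with the list median as a red bar and the median of all genes tested (0.06) as a dotted line. The Iroquois list has the highest median and extraembryonic endoderm genes lie at or below -0.34, while eye-field and anterior forebrain genes spread over both sides.

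Genes of extraembryonic endoderm, the yolk-sac lineage that also arises in stem cell aggregates, were lower in KO without exception, 21 of 21 tested, 15 of them by at least 1, with a median of -1.30. Srgn (serglycin, a proteoglycan core protein) was at 34.6 and 32.5 FPKM in WT and 0.17 and 0.63 FPKM in KO, 83.8-fold lower (log2 change -4.64 ± 0.23 SE, limma adjusted p = 2.11e-12). Amn and Cubn encode the 2 subunits of the receptor that yolk-sac cells use for protein uptake. Amn was at 12.6 and 13.2 FPKM in WT and 0.73 and 0.59 FPKM in KO, and Cubn at 4.67 and 4.35 FPKM in WT and 0.04 and 0.03 FPKM in KO. The regulators of the lineage fell with them: Gata4 from 5.95 and 5.91 to 0.42 and 0.36 FPKM, Gata6 from 3.65 and 3.87 to 0.41 and 0.28 FPKM, and Sox17 from 10 and 10.7 to 0.86 and 0.93 FPKM. Ttr, the secreted thyroxine carrier, was at 2.78 and 3.27 FPKM in WT and listed at 0 and 0.03 FPKM in KO, and Sparc, a matrix protein, fell from 151 and 149 to 60.2 FPKM in both. The summed level of the 22 list genes was 449 and 461 FPKM in WT and 177 and 178 FPKM in KO. All 21 were also lower at day 2, against 21.3% of all genes, and Srgn, Sox17 and Gata4 were lower in the stem cells of day 0 too, by -2.43, -1.86 and -1.50. In bulk RNA, fewer cells of a type and less RNA per cell cannot be told apart. The part of this loss in the differences of other genes was not tested.

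Several of the steepest falls outside the eye field were present at day 2 already. Pla2g1b, a secreted phospholipase, was at 28.5 and 24.6 FPKM in WT and 0.53 and 0.88 FPKM in KO, and Pga5, a pepsinogen, at 9.58 and 9.86 FPKM in WT and 0.12 and 0.23 FPKM in KO. Aqp8, a water channel, was at 5.67 and 5.59 FPKM in WT and 0.02 and 0.04 FPKM in KO. Ctsh, a lysosomal protease, fell from 18 and 16.8 to 1.76 and 2.13 FPKM, and Tuba3a, an alpha-tubulin, from 9.92 and 10.6 to 0.71 and 0.85 FPKM. In these 5 genes the KO libraries lay far below WT, and the day 2 differences ran from -2.31 to -3.15. By contrast, Ermn, a cytoskeletal protein, was at 6.68 and 7.06 FPKM in WT at day 4 and 0.22 and 0.27 FPKM in KO, and was not called at day 2 (-0.01). Bc1, a small cytoplasmic RNA, was at 11.1 and 13.1 FPKM in WT and listed at 0 in both KO libraries, and, being short and related to repeats, it is uncertain in a fragment count.

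Most core and formative pluripotency genes were lower in KO at day 4. Utf1, a chromatin-associated stem cell factor, was at 321 FPKM in both WT libraries and 91.2 and 96.8 FPKM in KO, 3.41-fold lower, and Dppa5a, an RNA-binding protein of stem cells, at 163 and 165 FPKM in WT and 39.2 and 40.5 FPKM in KO, 4.11-fold lower. Pou5f1, the central regulator of pluripotency, was at 396 and 401 FPKM in WT and 204 and 199 FPKM in KO, 1.97-fold lower. At day 2 the differences of these 3 genes had been 0.09, -0.21 and 0.13. Nanog, its partner, was higher in KO, at 12.5 and 13.9 FPKM in WT and 22.1 and 22.4 FPKM in KO. Of 12 core genes tested, 8 were lower and 3 higher, with a median of -0.44. Of 14 genes of the formative state, the step between naive stem cells and lineage choice, 10 were lower and 2 higher, with a median of -0.59, and 12 and 1 after rescaling. Among them Dnmt3b, a de novo DNA methyltransferase, was at 309 and 310 FPKM in WT and 131 FPKM in both KO libraries. Its cofactor Dnmt3l was at 42.7 and 40.9 FPKM in WT and 6.52 and 7.04 FPKM in KO, while Tet1, which oxidises methylcytosine, was higher, at 11.7 and 11.1 FPKM in KO against 5.43 and 5.9 FPKM in WT.

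**Figure D4:**
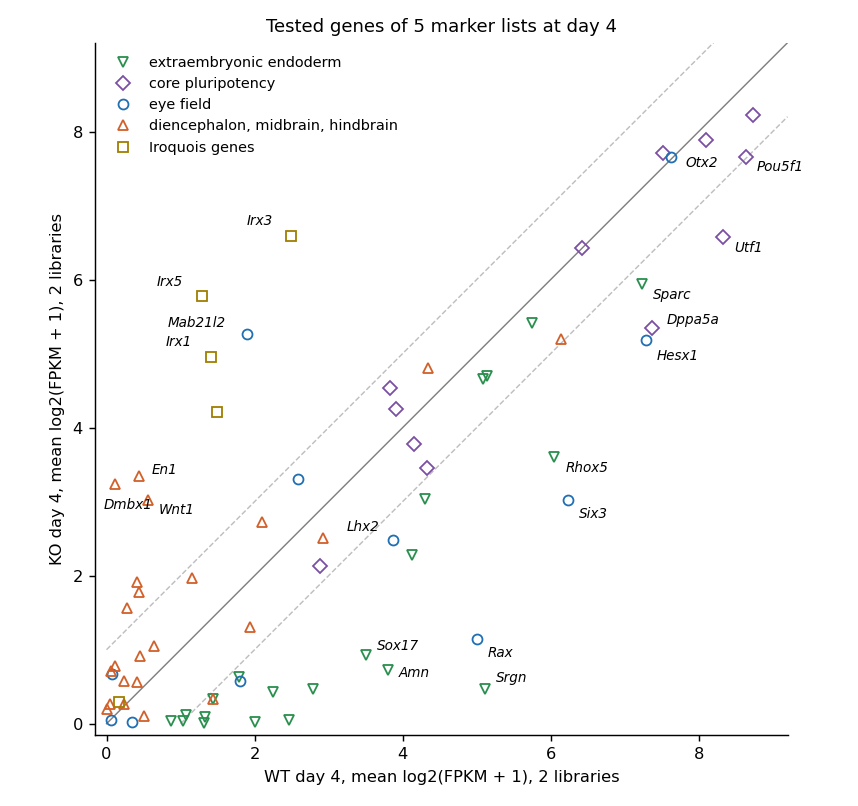
Mean log2(FPKM + 1) of the 2 KO libraries against that of the 2 WT libraries at day 4 for the tested genes of 5 marker lists, with the line of equal levels and dashed lines at a difference of 1. Mab21l2, 4 of the 5 Iroquois genes and 6 of the 23 genes of diencephalon, midbrain and hindbrain lie above the upper dashed line, and Rax, Six3, Hesx1 and most extraembryonic endoderm genes below the lower one.

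Genes of other embryonic cell types were mixed. Of 19 genes of non-neural ectoderm tested, 10 were higher and 5 lower: Tfap2a, its early regulator, rose from 0.6 and 0.81 to 7.25 and 7.8 FPKM and Dlx5 from 1.9 and 1.79 to 6.08 and 6.7 FPKM, whereas Epcam, an epithelial adhesion protein, was at 138 and 148 FPKM in WT and 115 and 116 FPKM in KO. Of 16 neural crest genes, 9 were higher and 2 lower, led by Twist1, from 5.47 and 5.09 to 27.6 and 29.7 FPKM. Twist1 and Tfap2a were already higher in KO at day 2, by 2.05 and 0.96. Of 13 mesendoderm genes, 8 were lower and 4 higher. Of these 8, Sox17, Gata4, Gata6 and Foxa2 are also on the extraembryonic endoderm list.

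Components of other signalling pathways gave large single changes, and their lists did not all lean the same way. Of 16 retinoic acid genes tested, 5 were higher and 6 lower, of 13 hedgehog genes 9 and 3, and of 14 Nodal genes 3 and 8. Of all genes, 36.5% were higher and 24.0% lower. Of 7 BMP ligands 3 were higher and 2 lower, and of 10 BMP antagonists 9 and 1. Cyp26a1, the enzyme that breaks down retinoic acid, changed direction over time. It was at 8.93 and 9.12 FPKM in WT and 33.4 and 31 FPKM in KO at day 4, 3.57-fold higher (log2 change 1.73 ± 0.10 SE, limma adjusted p = 2.30e-11), whereas its difference was -2.94 at day 2 and -3.41 at day 6. The day 2 to day 4 change of 4.66 was the largest positive one among the genes eligible for naming (limma adjusted p = 1.23e-14). Dkk1 had the same course, with -1.09, 1.47 and -1.06 at days 2, 4 and 6. Meis2, a homeobox gene responsive to retinoic acid, rose from 1.47 and 1.36 to 10.3 and 9.6 FPKM. Bmp7, a bone morphogenetic protein, rose from 3.81 and 3.83 to 13.2 FPKM in both KO libraries, and Fst, which blocks activin and BMPs, from 3.59 and 4.21 to 14.4 and 14.5 FPKM. Gli2, a transcription factor of the hedgehog pathway, rose from 2.49 and 2.39 to 8.22 and 9.03 FPKM, and Lefty2, a Nodal inhibitor, fell from 5.05 and 4.65 to 1.16 and 1.27 FPKM.

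Genes of the m6A machinery other than Mettl3 were partly higher. Rbm15, which guides the writer complex to RNA, was at 5.1 and 4.88 FPKM in WT and 20.1 FPKM in both KO libraries, 4.03-fold higher (log2 change 1.82 ± 0.05 SE, limma adjusted p = 1.58e-16). Wtap, the complex's regulatory subunit, was at 51.3 and 51.5 FPKM in WT and 114 and 113 FPKM in KO, 2.21-fold higher. The reader Ythdf2, which directs marked transcripts to decay, was at 20.6 and 19.8 FPKM in WT and 48.1 and 47.7 FPKM in KO, 2.37-fold higher. These 3 genes were also higher at day 2, by 1.01, 0.68 and 0.69. Mettl14, the partner of METTL3, differed by 0.14 ± 0.04 (SE, limma adjusted p = 0.0107), and this was not called after rescaling, without WT replicate 1 or without KO replicate 1 (limma adjusted p = 0.514, 0.061 and 0.0774). Of 12 writer genes tested, 8 were higher and 1 lower, with a median of 0.31. Of 13 reader and eraser genes, 7 were higher and 4 lower, with a median of 0.25. Of all genes, 36.5% were higher and 24.0% lower.

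Genes of sterol synthesis and of the p53 response were mostly higher in KO, at day 2 as well as at day 4. At day 2, 17 of 19 sterol genes and 15 of 18 p53 targets were higher, against 37.5% of all genes. At day 4, 15 of the 19 sterol genes were higher and 3 lower, with a median of 0.55. Dhcr7, the last enzyme of cholesterol synthesis, rose from 37.4 and 34.9 to 84.3 and 86.6 FPKM. Of 18 p53 targets, 13 were higher and 2 lower, with a median of 0.61. Perp, a desmosome protein, rose from 6.07 and 6.04 to 24.4 and 25.4 FPKM and Mdm2, which degrades p53, from 33 and 29.6 to 59.8 and 62.3 FPKM. Cell-cycle genes as a list did not lean either way, with 11 of 25 higher and 10 lower, but Cdk6 rose from 5.46 and 4.58 to 28 and 26.5 FPKM and its partner Ccnd2 from 4.89 and 4.45 to 18.3 and 17.6 FPKM. Of 29 imprinted genes tested, 10 were higher and 12 lower with a median of 0.00, and 6 and 14 after rescaling. Among them, H19 and Mest fell from 180 and 185 to 58.5 and 60.8 FPKM and from 666 and 710 to 244 and 258 FPKM.

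Set against the days on either side, day 4 shared most of its large differences with both. In all, 902 genes were called with a change of at least 1. At day 2, 721 (79.9%) of them were called in the same direction and 30 (3.33%) in the opposite one. At day 6, 751 (83.3%) were called in the same direction and 43 (4.77%) in the opposite one. Of all genes, 58.9% were called at day 2 and 65.1% at day 6, in either direction. The same-direction share over all genes was not computed. Of the 902, 612 (67.8%) had a difference that itself changed from day 2 to day 4, beside 42.4% of all genes. The 902 were chosen by their day 4 difference, which is part of this change. A higher share than that of all genes is thus partly built in by the choice. The most negative changes among genes eligible for naming were those of eGFP, Rax, Six3, Robo3 and Rps6kl1. Robo3, an axon guidance receptor, was at 18.5 and 19.6 FPKM in WT and 4.16 and 4.18 FPKM in KO at day 4, and its difference had been 0.87 at day 2. From day 4 to day 6 the difference changed in 7808 genes (48.0%), positively in 36.4% of them as deposited and in 55.2% after rescaling. The difference of Six6 changed by -5.80 in that interval (limma adjusted p = 1.67e-20), as WT reached 69.7 FPKM on average and KO 0.02.

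The KO cultures with WTMTL3-GRBD at day 4 are given for reference and were not tested here. Without Dex, eGFP was at 2.77 and 2.38 FPKM, Rax at 6.51 and 6.43 and Six3 at 34.5 and 33.1 FPKM. With Dex, they were at 66.5 and 66.9, 74.2 and 74.8, and 128 and 126 FPKM, all above the WT libraries. Irx3 was at 59.5 and 57.5 FPKM without Dex and 8.67 and 8.8 FPKM with it, between the levels of KO and WT.

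Some of these genes overlap a transcript on the opposite strand, and the sources used here do not say whether counting used strand. This holds for Rax, Six3, Otx2, Pax6, Irx3, Lhx2, Tbx3, Lef1, Dnmt3b, Mab21l2 and Mettl3 among others, so reads of both strands cannot be told apart there.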

How the data were processed

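Polyadenylated RNA of 32 libraries, 16 groups of 2, was sequenced in pairs of 150-base reads, per the labels, and deposited as 1 table of FPKM for 55492 rows, rounded to 2 decimals by the authors. STAR, Cuffdiff and mm10 are named in the submitters' processing notes, and strand handling is not given in the sources used here. Gene positions come from GENCODE M21 (GRCm38), to which 99.5% of rows matched by identifier. Mapping of a column to its sample followed the library name in the labels.

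The test was limma 3.58.1 (R 4.3.3), applied to log2(FPKM + 1) in a single fit of all 32 libraries with 16 group means and eBayes with a trend. Genes were tested when at least 2 libraries reached 1 FPKM, and called at an adjusted p under 0.05 (Benjamini-Hochberg over all 16276 genes). The members compared and the gene lists were chosen with earlier results of these data known. Named genes were list members, Mettl3, eGFP, the 15 largest rises and falls and the 5 largest day 2 to day 4 changes in each direction among called genes of at least 5 FPKM with non-overlapping libraries. The scripts were tested on simulated data. Depth was estimated from FPKM steps, with 89.7% to 91.4% of low values at a whole fragment (tolerance 0.2) in the 4 libraries. These limits cover counting error only. Alternatives were a pseudocount of 0.1, other filters, rescaling, a fit of the 4 libraries alone, the replicate number as a block, limma's treat, leaving out chromosome 8 and leaving out each library in turn.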

Additional observations from a re-analysis of the deposited data

Results flagged for a closer look

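By the interaction test of the limma fit, the difference between KO and WT changed over time in many genes. It changed in 6893 genes from day 2 to day 4 and in 7808 genes from day 4 to day 6. Among eye-field genes, the change from day 2 to day 4 was negative for Rax (-4.11), Six3 (-3.28), Lhx2 (-2.06), Hesx1 (-1.32), Tbx3 (-0.78, limma adjusted p = 0.0102) and Six6 (-0.55), and positive for Mab21l2 (2.16) and Mab21l1 (0.58). For Six6 and Mab21l1 all day 2 and day 4 libraries of both lines were under 1 FPKM. Lhx2 went from higher in KO at day 2 (0.66) to lower at day 4 (-1.39), and the eGFP reporter changed by -4.53 with no call at day 2.

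Outside the eye field, among called genes of at least 5 FPKM with a change of at least 1 and non-overlapping libraries at day 4, the largest changes were those of Cyp26a1 (4.66), Irx5 (3.61), Sox21 (3.35), Irx1 (3.32) and Sp5 (3.26) in the positive direction, and of Robo3 (-2.82) and Rps6kl1 (-2.67) in the negative one. Sox21 was lower in KO at day 2, by -0.19, and higher at day 4, by 3.16. Rps6kl1, which encodes a kinase-like protein, was higher in KO at day 2, by 0.56, and lower at day 4, by -2.12, with 6.85 and 6.74 FPKM in WT and 0.86 and 0.73 FPKM in KO.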

How the results depend on the processing

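The number of genes called at day 4 stayed within 1.5 times of 9855 under every alternative run, from 6875 (mean FPKM of at least 5, which tests fewer genes) to 10575 (no filter). The number with a change of at least 1 was 1992 with a pseudocount of 0.1, 549 with a mean FPKM of at least 5 and 356 with treat, against 902. With a mean FPKM of at least 5, 6469 genes changed from day 2 to day 4 within WT and 6957 within KO. Leaving out each day 4 library in turn, where the lone library is assumed to vary like the other groups, gave 8855 to 8927 calls at day 4, 912 to 924 of at least 1, 6079 to 6157 for the change of the difference from day 2 to day 4, 7064 to 7188 for that from day 4 to day 6, 8649 to 9730 within WT and 9441 to 10405 within KO. Without chromosome 8 the calls were 9222, and 814 of at least 1. Of 101 genes named, Otx2 turned to -0.07 under rescaling and Nr2e1, at 0, ran from -0.01 to 0.01 with a library left out. Sox2, Ccnd1 and Mettl14 lost their call under rescaling. Under treat, which asks for more than a change of 1, 23 genes missed the threshold, Lhx2 and Tbx3 among them.

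Duplicate numbers do not pair the samples: deviations of same-numbered WT and KO libraries at day 4 correlated at 0.09, and at -0.09 to 0.13 over 120 pairs of groups. With the replicate number as a block there were 9842 calls at day 4 and 902 of at least 1, 6828 and 7775 for the changes from day 2 to 4 and day 4 to 6, and 9744 and 10452 within WT and KO. No named gene changed its call. Groups of 2 allow no test for outlying libraries.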

Other observations

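Transcripts that carry more copies of GGACT, a core of the sequence that METTL3 methylates, tended to be higher in KO at day 4. Among 13588 protein-coding genes tested (median difference 0.09), counted on the longest GENCODE M21 transcript, the median was 0.00 for genes with 0 to 2 copies (5290 genes), 0.12 for 3 to 5 (5048), 0.18 for 6 to 9 (2449) and 0.20 for 10 or more (801). Copies rise with transcript length, and longer transcripts were higher as well: the medians were -0.03, 0.12 and 0.17 in the short, middle and long classes of equal size. Within the middle class the medians were 0.08, 0.13, 0.19 and 0.21 over the same 4 steps, the last of which held 32 genes. A like order was present in this class on other days, so it is not particular to day 4. The medians were 0.05, 0.12, 0.19 and 0.23 at day 2, and -0.07, 0.01, 0.09 and 0.08 at day 6. At day 0 they were -0.06, -0.05, -0.07 and -0.06 there, and over all lengths they ran the other way, at 0.00, -0.06, -0.13 and -0.16. After rescaling the day 4 values of that class were 0.00, 0.04, 0.11 and 0.11. These are descriptions across genes, which are not independent, with no test, and the share of copies that are methylated was not measured.

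Of the 902 genes with a change of at least 1 at day 4, 88 (9.76%) lay on chromosome 8, which holds 5.27% of the genes tested. Of the 88, 80 (90.9%) were higher in KO as deposited, against 64% of the 902 and 61.1% of such calls in the fit without chromosome 8. After rescaling 52.6% of all such calls were higher, and the share on chromosome 8 was not computed there.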
